A study of Mus musculus with 12 samples.

Results

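The expression of *Cald1*, which codes for the actin-binding protein caldesmon, was examined in CD11b-positive cortical cells beside 9 genes known from the contractile and pericyte cells of vessel walls. *Cald1* was chosen by its measured treatment effects: of all tested genes it had the clearest opposite response to rh Bri2 BRICHOS R221E in the WT and the AppNL-G-F strain. The other members were listed as smooth muscle genes (*Acta2*, *Tagln*, *Myh11*, *Myl9*, *Tpm2*, *Cnn1*, *Des*) and as pericyte genes (*Pdgfrb*, *Vtn*). These 10 genes were all found among the 55487 genes of the count table, and 9 of them were among the 15425 genes with counts high enough to be tested. *Cnn1* was not tested. Because *Cald1* was selected on its treatment effects in both strains and on their difference, these values are given as a description without a p-value.

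RNA was sequenced from the cerebral cortex of 12 male mice in 4 groups of 3, which were WT or AppNL-G-F mice that received either veh (PBS) or rh Bri2 BRICHOS R221E. AppNL-G-F mice carry a knock-in *App* gene with the Swedish, Iberian and Arctic mutations in every cell, and rh Bri2 BRICHOS R221E is a mutated recombinant form of the human Bri2 chaperone domain. Treatment began at 9 months of age and consisted of 24 intravenous injections over 12 weeks, at 10 mg/kg for rh Bri2 BRICHOS R221E, followed by 4 weeks without treatment. All cells were freed with papain and taken with magnetic beads against CD11b, an integrin chain on microglia and further myeloid cells. The comparisons ask how the strain and the treatment are reflected in the RNA of these cells.

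Caldesmon binds actin and tropomyosin and restrains myosin until calcium signals or phosphorylation release it. Vascular smooth muscle makes a long form of the protein, and other cells, including cultured fibroblasts and endothelial cells, make a shorter form. Smooth muscle cells around arterioles and pericytes around capillaries, together called mural cells, set the width of brain vessels and help to maintain the blood-brain barrier. Many of their contractile genes are controlled by serum response factor (SRF), which binds a short DNA element called the CArG box with the help of myocardin or its relatives.

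Between 12433402 and 17889654 reads were counted on genes per library. Levels are given as normalized CPM, the count of a gene relative to the reads on tested genes of its library, with this total multiplied by a TMM factor. The factor was 1.045 to 1.104 in WT and 0.874 to 0.952 in AppNL-G-F libraries. A count of 3, taken as the smallest detectable level, corresponded to 0.168 to 0.241 CPM of all counted reads, without the factor. This limit covers counting error only. The label of the cells as microglial was checked with 10 microglia markers. Their summed level was between 25624 and 31286 CPM over the 12 libraries, with none of them at 0 in any group. RNA of other cells was also present: 8 oligodendrocyte markers summed to 9718 to 17020 CPM in veh-treated WT and 4170 to 15737 CPM in treated WT mice. In AppNL-G-F mice they summed to 3254 to 5682 CPM with veh and 4533 to 6242 CPM after treatment. Of the members, the smooth muscle actin and myosin genes *Acta2* and *Myh11* had at least 88 and 72 counts in every library. The pericyte genes *Pdgfrb* and *Vtn* had at least 88 and 320. These counts show detection only and cannot check the label of the members as mural cell genes, since the 4 genes are themselves members. Transcripts known from smooth muscle and pericytes were thus present in every isolate although the beads select for a myeloid protein. In such bulk samples, fewer cells of a type and less RNA per cell cannot be told apart, and the cells that the RNA of the members came from were not identified. The mice of a group were separate animals, so the spread within a group includes biological variation and the variation of the isolation. In the veh-treated AppNL-G-F group replicate 3 had the lowest summed astrocyte marker level, 1488 CPM against 4272 and 4783 in the other mice.

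In the GRCm38 annotation *Cald1* (ENSMUSG00000029761) lies on the plus strand at chr6:34598500-34775473 and has 18 annotated transcripts, 5 of which have a complete coding sequence. These encode between 530 and 768 amino acids, and the next longest after the longest encodes 554. The span holds 3 genes on the opposite strand, but their exons do not overlap those of *Cald1*. Counts were made per gene, so the long smooth muscle form and the short form cannot be separated. RefSeq lists start sites on GRCm38.p6 for *Cald1* at 34598504 and at 34709444 of chromosome 6, and the sequences before them are shown to compare them with those of *Acta2* and *Myl9*, since CArG boxes are best known from contractile genes. Each run holds the 250 bases before the start site, 5′ to 3′ on the strand of the gene. Capitals mark a CArG box (a pair of C, a run of A or T, a pair of G) with at most 1 mismatch, searched on both strands, and no other motif was searched.
Cald1, first start site, chr6:34598254-34598503, plus strand: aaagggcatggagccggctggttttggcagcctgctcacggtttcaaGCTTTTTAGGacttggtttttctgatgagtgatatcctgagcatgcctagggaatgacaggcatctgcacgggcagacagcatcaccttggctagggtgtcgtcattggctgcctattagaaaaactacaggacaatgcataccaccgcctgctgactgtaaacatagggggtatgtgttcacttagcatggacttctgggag
Cald1, second start site, chr6:34709194-34709443, plus strand: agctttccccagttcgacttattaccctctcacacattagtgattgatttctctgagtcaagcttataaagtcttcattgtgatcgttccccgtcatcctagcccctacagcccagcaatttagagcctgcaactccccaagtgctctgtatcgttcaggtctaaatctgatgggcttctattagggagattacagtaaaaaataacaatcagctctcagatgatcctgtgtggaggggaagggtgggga
Acta2, chr19:34255374-34255623, minus strand: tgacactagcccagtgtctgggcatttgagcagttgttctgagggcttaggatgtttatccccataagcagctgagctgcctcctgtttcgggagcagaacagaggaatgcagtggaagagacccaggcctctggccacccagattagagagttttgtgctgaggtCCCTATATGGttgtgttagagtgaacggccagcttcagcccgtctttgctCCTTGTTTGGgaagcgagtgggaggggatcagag
Myl9, chr2:156775214-156775463, plus strand: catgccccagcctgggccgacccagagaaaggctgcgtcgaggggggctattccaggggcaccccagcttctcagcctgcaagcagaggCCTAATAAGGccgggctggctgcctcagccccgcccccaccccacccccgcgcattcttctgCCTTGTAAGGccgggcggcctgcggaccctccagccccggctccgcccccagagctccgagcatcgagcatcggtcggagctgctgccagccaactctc
The window before the first *Cald1* start site held 1 such match, which ended 193 bases before the start, and the window before the second held none. *Acta2*, the gene of smooth muscle actin, and *Myl9*, the gene of a regulatory myosin light chain, held 2 matches each. Those of *Acta2* ended 74 and 24 bases before the start, those of *Myl9* 151 and 89 bases. A match with at most 1 mismatch was found in 18.6% of the 32851 windows of the same length in the table, so that holding 1 is common. A match without mismatch was found in 1.47% of them, and among the windows of the members this was the case for *Myl9* alone. The windows before *Tpm2*, *Cnn1*, *Des* and *Vtn* held 0 matches, also with 1 mismatch allowed. No window was searched for *Tagln*, *Myh11* and *Pdgfrb*.

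*Cald1* was measured at 27.80, 26.21 and 27.27 CPM in the 3 veh-treated WT mice and at 36.97, 34.13 and 37.20 CPM in the treated WT mice. In AppNL-G-F mice it was at 18.32, 20.41 and 18.82 CPM with veh and at 12.85, 10.81 and 11.56 CPM after treatment. The 4 groups therefore formed an order without overlap, from treated WT over veh-treated WT and veh-treated AppNL-G-F to treated AppNL-G-F mice, and every step was larger than the SD within a group, which was at most 1.71 CPM. Between veh-treated AppNL-G-F and WT mice *Cald1* was 1.41-fold lower, with a log2 fold change of -0.50 and a standard error of 0.0787. The veh-treated mice also enter the difference that selected the gene, so this value is a description too. Leaving out any 1 library kept it between -0.54 and -0.46 on the log2 scale. Its log2 fold change with treatment was 0.41 (standard error 0.0769) in WT and -0.71 (standard error 0.0815) in AppNL-G-F mice, and the latter minus the former was -1.12 (standard error 0.112). In the order of the p-values of that difference, which is not the order of its size, the next genes were *Usp39* at 0.56, with the directions reversed (-0.26 in WT, 0.30 in AppNL-G-F), *Lrp8* at -1.32 (0.40 and -0.92) and *Itsn1* at -0.71 (0.47 and -0.24).

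Among the contractile genes, *Acta2* (ENSMUSG00000035783, chr19:34241090-34255590) was at 16.36, 18.56 and 23.92 CPM in veh-treated WT mice and at 30.74, 21.23 and 32.22 CPM in treated WT mice. In AppNL-G-F mice it was at 8.81, 11.88 and 10.89 CPM with veh and at 8.72, 5.63 and 13.97 CPM after treatment. All 6 AppNL-G-F mice were below all 6 WT mice, whereas the treated and veh-treated mice overlapped in both strains. *Myh11* (ENSMUSG00000018830, chr16:14194535-14291372), which encodes the myosin heavy chain of smooth muscle, was at 14.45, 16.13 and 20.94 CPM in veh-treated WT mice and at 26.39, 24.16 and 25.07 CPM in treated WT mice. The levels in AppNL-G-F mice were 6.60, 11.09 and 10.08 CPM with veh and 8.72, 4.61 and 10.73 CPM after treatment. Treated and veh-treated WT mice did not overlap in *Myh11*, and those of the AppNL-G-F strain did.

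*Myl9* (ENSMUSG00000067818, chr2:156775420-156781658), the light chain whose phosphorylation starts contraction, was at 11.50, 14.89 and 14.98 CPM in veh-treated and 19.90, 15.77 and 17.51 CPM in treated WT mice. In AppNL-G-F mice it was at 7.32, 9.12 and 7.71 CPM with veh and at 7.49, 4.03 and 5.97 CPM after treatment. Its WT groups stood apart, while 1 treated AppNL-G-F mouse lay within the range of the veh-treated ones. *Tagln* (ENSMUSG00000032085, chr9:45929619-45936058), the gene of the actin-bundling protein transgelin, was at 7.46, 8.54 and 9.02 CPM in veh-treated WT mice and at 13.35, 10.48 and 15.00 CPM in treated WT mice. Its levels were 4.40, 6.83 and 4.59 CPM in veh-treated and 3.55, 2.94 and 6.65 CPM in treated AppNL-G-F mice. Exons of *Tagln* overlap those of 2 genes on the other strand, and the strand setting of the counting is not given in the sources used here, so reads of these genes may not be fully separated.

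The remaining contractile genes were scarcer. *Tpm2* (ENSMUSG00000028464, chr4:43514711-43523765), a tropomyosin of muscle, was at 4.66, 4.86 and 6.04 CPM in veh-treated WT and 6.68, 7.21 and 8.76 CPM in treated WT mice, and its AppNL-G-F levels were 3.50, 5.12 and 4.08 CPM with veh and 4.58, 4.29 and 3.55 CPM after treatment. The WT groups did not overlap and the AppNL-G-F groups did. *Des* (ENSMUSG00000026208, chr1:75360329-75368579), the intermediate filament desmin of muscle cells and pericytes, had between 10 and 74 counts per library. Its level was 1.81 ± 0.572 CPM (SD, n = 3) in veh-treated WT, 3.14 ± 0.952 in treated WT, 1.50 ± 0.301 in veh-treated AppNL-G-F and 1.20 ± 0.588 in treated AppNL-G-F mice, and its exons overlap those of 1 gene on the other strand. *Cnn1* (ENSMUSG00000001349, chr9:22099216-22109630), the gene of the smooth muscle actin-binding protein calponin, had 5, 3 and 3 counts in veh-treated WT and 11, 16 and 9 counts in treated WT mice. It had 3, 2 and 1 counts in veh-treated and 4, 2 and 3 counts in treated AppNL-G-F mice, so that more than 5 counts were reached in the treated WT mice alone.

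Of the pericyte genes, *Pdgfrb* (ENSMUSG00000024620) encodes the receptor through which endothelial PDGF-B recruits pericytes. It was at 18.83, 17.38 and 18.63 CPM in veh-treated WT mice and at 28.79, 21.51 and 21.46 CPM in treated WT mice. In AppNL-G-F mice it was at 18.13, 20.74 and 12.37 CPM with veh and at 10.65, 5.63 and 10.27 CPM after treatment. The veh-treated mice of both strains overlapped, and treated mice stood apart from veh-treated ones in both strains, above them in WT and below them in AppNL-G-F mice. *Vtn* (ENSMUSG00000017344, chr11:78499091-78502324), the gene of the matrix protein vitronectin, which pericytes of the brain make in quantity, was at 58.61, 65.47 and 58.05 CPM in veh-treated WT mice and at 80.12, 58.29 and 52.72 CPM in treated WT mice. The AppNL-G-F levels were 37.49, 51.20 and 40.38 CPM with veh and 31.89, 20.47 and 28.33 CPM after treatment. Both WT groups overlapped and the treated AppNL-G-F mice were below all the others. Replicate 2 was the lowest of the treated AppNL-G-F mice for 8 of the 9 tested members, with *Tpm2* as the exception.

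**Figure D1:**
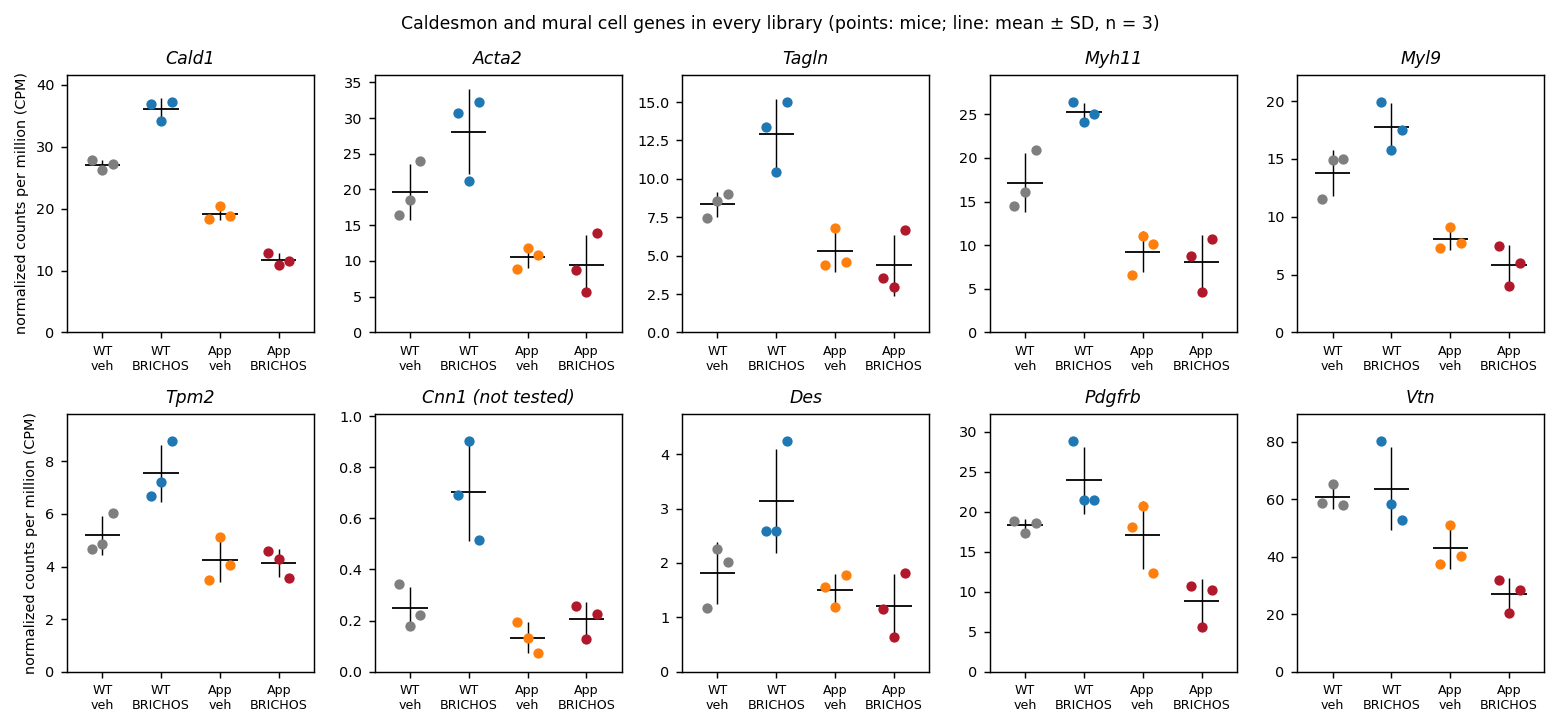
Normalized CPM (vertical axes, each from 0) of the 10 genes in the 4 groups, where each point is 1 mouse, the horizontal line is the mean of 3 and the vertical line is ± SD (App, AppNL-G-F; BRICHOS, rh Bri2 BRICHOS R221E). The 4 groups of *Cald1* do not overlap, from 37.20 CPM in a treated WT mouse to 10.81 CPM in a treated AppNL-G-F mouse, and *Pdgfrb* is the one other tested gene whose treated mice stand apart from veh-treated mice in opposite directions in the 2 strains.

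Per kb of annotated exon, which allows genes to be compared, the levels in veh-treated WT mice were 29.9 CPM per kb for *Vtn*, 11.9 for *Myl9*, 8.93 for *Acta2* and 4.20 for *Tagln*. *Pdgfrb* followed with 3.34, *Myh11* with 2.26, *Cald1* with 2.25 and *Tpm2* with 1.78 CPM per kb. *Des* with 0.482 and *Cnn1* with 0.0906 CPM per kb were the lowest. *Cald1* had rank 7 by this measure. Its length of 12.0 kb covers the exons of all 18 annotated transcripts, retained introns included, so its level per kb may be understated. Without division by length, *Cald1* was at 27.1 CPM in these mice, and *Vtn*, at 60.7 CPM, was the one member above it.

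Between the veh-treated strains, 3 of the other contractile genes were lower in AppNL-G-F mice. Of the 8 tested members other than *Cald1*, 3 were lower at an adjusted p-value under 0.05 and none was higher, where 16.9% of all tested genes were lower. These were *Acta2* with a log2 fold change of -0.90 (SE, the standard error, 0.281, adjusted p = 0.0263), *Myh11* with -0.89 (SE 0.266, adjusted p = 0.0213) and *Myl9* with -0.78 (SE 0.198, adjusted p = 0.00955). *Tagln* at -0.66 (adjusted p = 0.0838) and *Vtn* at -0.50 (adjusted p = 0.0515) did not pass, although their groups did not overlap. *Vtn* was close to the threshold: it passed under 5 alternatives, with adjusted p-values of 0.0122 (only the compared groups fitted) to 0.0497 (DESeq2's size factors), and without replicate 2 of the veh-treated AppNL-G-F, replicate 1 or 2 of the treated AppNL-G-F or replicate 1 or 3 of the treated WT mice, while its adjusted p over all omissions of a library ranged from 0.0250 to 0.167. The groups stood apart downwards for 5 of the 8 members, against 25.3% of all tested genes. *Tpm2* at -0.29, *Des* at -0.27 and *Pdgfrb* at -0.095 had adjusted p-values of 0.255 to 0.771. The number of members called depended on single libraries: it was 1 without replicate 1 of the veh-treated AppNL-G-F mice or without replicate 3 of the veh-treated WT mice, 2 without replicate 3 of the former or replicate 2 of the latter, and 5 without replicate 2 of the veh-treated AppNL-G-F mice. *Acta2* missed the threshold in each of the first 4 cases (adjusted p up to 0.0947) and *Myh11* in the first 2 (up to 0.0822).

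For rh Bri2 BRICHOS R221E against veh in WT mice, the estimates of all 8 members lay above 0, as did 49.1% of all tested genes. None of the 8 passed the adjusted threshold, and neither did any other of the 15425 genes (0.0%). The log2 fold changes were 0.79 for *Des*, 0.63 for *Tagln*, 0.56 for *Myh11*, 0.54 for *Tpm2* and 0.52 for *Acta2*. They were smaller for *Pdgfrb* (0.39), *Myl9* (0.36) and *Vtn* (0.068), and their adjusted p-values ranged from 0.308 to 0.928 over all 8. At an unadjusted p-value under 0.05, *Tagln* and *Tpm2* were higher, 2 of 8 where 6.55% of all tested genes were higher. The treated mice stood above the veh-treated ones without overlap for 6 of the 8, namely *Tagln*, *Myh11*, *Myl9*, *Tpm2*, *Des* and *Pdgfrb*, where 8.36% of all tested genes did so. The median of the 8 log2 fold changes was 0.53, that of all tested genes -0.0036. DESeq2's Wald test called 80 genes in this comparison, and 0 of the 8 members.

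In AppNL-G-F mice the treatment estimates of all 8 members lay below 0, led by the pericyte genes, where 48.0% of all tested genes had estimates below 0. Again none of the 8 passed the adjusted threshold. The share of all tested genes that did was 0.00648%, which is *Cald1* itself, the gene selected on this effect, and nothing is read from its call. That call was lost in 9 of the 12 omissions of a library. *Pdgfrb* had an estimate of -0.95 on the log2 scale (SE 0.24, adjusted p = 0.291) and *Vtn* one of -0.68 (SE 0.187, adjusted p = 0.294), and for both the treated mice were below the veh-treated ones without overlap, as for 7.09% of all tested genes. *Myl9* at -0.47 (adjusted p = 0.442) was the third member under 0.05 without adjustment, where 7.67% of all tested genes were lower at this level. The other contractile genes had log2 fold changes of -0.33 (*Des*), -0.28 (*Tagln*), -0.21 (*Myh11*), -0.17 (*Acta2*) and -0.029 (*Tpm2*), with adjusted p-values of 0.786 to 0.978. The median of the 8 was -0.31, that of all tested genes 0.0078. DESeq2's Wald test gave *Pdgfrb* an adjusted p-value of 0.0236 and *Vtn* of 0.0458, and without replicate 3 of the veh-treated mice, the one with the lowest *Pdgfrb* level, edgeR's value for *Pdgfrb* was 0.0489. Without replicate 2 of the treated mice the estimates were 0.11 for *Acta2* and 0.077 for *Myh11*, and that of *Tpm2* was 0.069 without replicate 3 of the treated and 0.13 without replicate 2 of the veh-treated mice.

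The difference of the treatment effects, AppNL-G-F minus WT, was below 0 for all 8 members and for 47.9% of all tested genes. None of the 8 passed the adjusted threshold. The share of all tested genes that did was 0.00648%, again *Cald1* itself, and nothing is read from it. It was -1.34 for *Pdgfrb* (SE 0.331, adjusted p = 0.157 from edgeR's test), -1.12 for *Des*, -0.91 for *Tagln*, -0.83 for *Myl9*, -0.77 for *Myh11*, -0.75 for *Vtn*, -0.68 for *Acta2* and -0.57 for *Tpm2*. At an unadjusted p-value under 0.05, *Tagln*, *Myl9*, *Pdgfrb* and *Vtn* were lower, 4 of 8 where 9.54% of all tested genes were. Estimates above 0 in WT and below 0 in AppNL-G-F mice were found for 27.1% of all tested genes, and groups apart in both of these directions for 1.16%, with *Pdgfrb* as the single member besides *Cald1*. The adjusted p-value of *Pdgfrb* was 0.0128 with DESeq2's Wald test and 0.0457 with no filter on low counts, and it was between 0.0528 and 0.342 when single libraries were left out.

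Among treated mice, all 8 members were lower in AppNL-G-F than in WT mice, with adjusted p-values under 0.05 for 8 of 8, where 21.8% of all tested genes were lower. None of the 8 overlapped between the groups, as was the case downwards for 26.4% of all tested genes. For *Myh11* the log2 fold change was -1.66 (SE 0.268, adjusted p = 0.00047), for *Myl9* -1.60 (SE 0.202, adjusted p = 7.55e-05), for *Acta2* -1.58 and for *Tagln* -1.57. The log2 fold change was -1.44 for *Pdgfrb* (SE 0.238, adjusted p = 0.000562), -1.39 for *Des*, -1.24 for *Vtn* and -0.86 for *Tpm2*, the last with an adjusted p-value of 0.00323. *Cald1* had a value of -1.62, given as a description because it contains the difference that selected the gene. The median of the 8 was -1.50, that of all tested genes -0.042. All 8 calls were kept under each alternative that was run and without each single library. That of *Des* came close to the threshold, with an adjusted p-value from edgeR's test of up to 0.0492 when a library was left out. This comparison shares its mice with both treatment comparisons.

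Set against veh-treated WT mice, treated AppNL-G-F mice had lower levels of 6 of the 8 members at an adjusted p-value under 0.05, where 18.9% of all tested genes were lower. These were *Myl9* at -1.24 (adjusted p = 0.000505), *Vtn* at -1.18 (0.000416), *Myh11* at -1.10 (0.00687), *Acta2* at -1.06 (0.0113), *Pdgfrb* at -1.05 (0.00467) and *Tagln* at -0.94 (0.0207). *Des* at -0.61 (0.245) and *Tpm2* at -0.32 (0.207) did not pass. These groups stood apart downwards for 7 of the 8 members, where 25.3% of all tested genes did so. *Cald1* was at -1.21, again a description. *Tagln* lost its call without replicate 1 or 2 of the treated AppNL-G-F mice and without replicate 2 or 3 of the veh-treated WT mice, with adjusted p-values up to 0.0801.

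**Figure D2:**
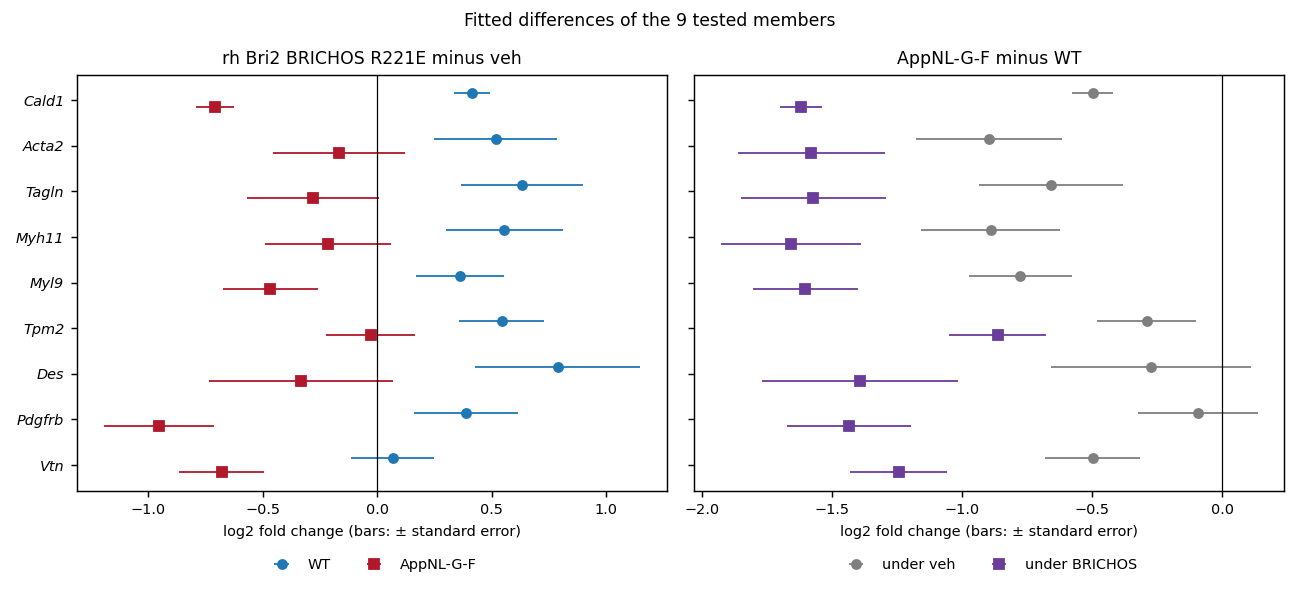
Log2 fold changes (horizontal axes) with standard errors of the 9 tested members, for treatment within each strain (left) and for AppNL-G-F minus WT mice under each treatment (right). Points for WT lie to the right of 0 and those for AppNL-G-F to the left for all 9, with standard errors that reach 0 for several contractile genes in AppNL-G-F mice, and the strain differences under rh Bri2 BRICHOS R221E lie between -1.66 and -0.86.

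Of the 30 further smooth muscle genes in a list, 26 were tested. Between veh-treated strains 7 were lower and 1 higher in AppNL-G-F mice, and between treated strains 21 were lower and 1 higher, with medians of -0.76 and -1.37. Of all tested genes, 16.9% were lower and 20.1% higher between the veh-treated strains, and 21.8% were lower and 20.8% higher between the treated strains, which are the shares to set beside the counts of this and the following lists. The lower ones under treatment included *Mylk*, the kinase that activates myosin in smooth muscle (-1.37, adjusted p = 0.00103), *Lmod1*, which nucleates actin filaments (-2.20), *Itga8*, an integrin subunit (-1.85), and *Kcnmb1*, a potassium channel subunit (-1.95). The higher one was *Prkg1*, the cGMP-dependent kinase of the relaxation pathway, with 1.44 under veh and 1.42 under treatment. None of the 26 passed the adjusted threshold with treatment in either strain; at an unadjusted p-value under 0.05, 3 were higher in WT and 5 lower in AppNL-G-F mice, against 6.55% and 7.67% of all tested genes. DESeq2's Wald test called none of them in WT and 1 lower in AppNL-G-F mice, which was *Synpo2*, the gene of an actin-binding protein of muscle. In AppNL-G-F mice 18 of the 26 had an adjusted p-value from that test. The most abundant gene of the list was *Csrp1*, a LIM protein, whose level varied widely within groups (180.1 ± 72.4 CPM in veh-treated WT mice) and differed in no comparison. *Ppp1r12b*, a subunit of myosin phosphatase, had a log2 fold change of -0.44 between treated strains (adjusted p = 0.00533). The number of genes lower under veh was 2 without replicate 1 of the veh-treated AppNL-G-F mice, and 4 and 3 without replicates 2 and 3 of the veh-treated WT mice. In treated AppNL-G-F against veh-treated WT mice 16 genes were lower, and 9 and 10 without replicate 2 of the former and replicate 3 of the latter.

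All 22 further pericyte genes were tested, and between treated strains 15 were lower and 1 higher in AppNL-G-F mice. *Rgs5*, a regulator of G protein signalling and the most abundant of them, was at 93.3 ± 7.20 CPM in veh-treated WT, 121.3 ± 17.6 in treated WT, 64.5 ± 18.5 in veh-treated AppNL-G-F and 47.0 ± 11.8 in treated AppNL-G-F mice. Its log2 fold change between treated strains was -1.37 (adjusted p = 0.000319). The transcription factor genes *Zic1* (-2.01), *Tbx18* (-1.98) and *Foxf2* (-1.27) and the potassium channel genes *Kcnj8* (-1.54) and *Abcc9* (-1.16) were also lower in this comparison. Under veh, *Foxf2* alone was lower (-1.04), and *Cspg4* and *Anpep* were higher. *Cspg4*, the proteoglycan NG2, known from pericytes and from oligodendrocyte precursors, rose from 10.1 ± 0.359 CPM in veh-treated WT to 100.3 ± 18.1 CPM in veh-treated AppNL-G-F mice, a log2 fold change of 3.31. It was higher among treated mice too (2.89). *Mcam*, a cell adhesion gene, had adjusted p-values of at least 0.382 in all comparisons. With treatment 0 of the 22 passed the adjusted threshold in either strain by edgeR's test. DESeq2's Wald test also called 0, with adjusted p-values for 22 genes in WT and 20 in AppNL-G-F mice. For the difference of the treatment effects it called *Zic1* lower. In edgeR's test of treatment without adjustment, 4 of the 22 were higher in WT and 8 lower in AppNL-G-F mice, against 6.55% and 7.67% of all tested genes. The medians were 0.31 in WT and -0.60 in AppNL-G-F mice. The number lower under veh was 1, and between 1 and 4 when single libraries were left out, with 4 without replicate 1 of the treated or replicate 2 of the veh-treated AppNL-G-F mice, 3 without replicate 2 of the treated AppNL-G-F mice, and 2 without replicate 3 of the veh-treated AppNL-G-F mice or without any 1 of the treated WT mice.

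A list of caldesmon partners showed another pattern. It held actins, myosins of non-muscle cells and tropomyosins together with further actin-binding and regulatory genes, so it is not limited to direct partners. Of 23 tested genes, 8 were higher and 9 lower in veh-treated AppNL-G-F than WT mice, with a median of -0.075. *Actb*, the main cytoplasmic actin, was at 3929 ± 121 CPM in veh-treated WT and 2967 ± 171 CPM in veh-treated AppNL-G-F mice (-0.41, adjusted p = 0.00195), and *Actg1* (-0.37), *Myh9* (-0.33), *Actn1* (-1.31) and *Cnn2* (-1.37) were lower as well. *Tpm4* (0.77), *Myh10* (0.71), *Tagln2* (0.64) and *Myl6* (0.39) were among the higher ones. The treatment medians were 0.013 in WT and 0.036 in AppNL-G-F mice, and 0 of the 23 passed the adjusted threshold with treatment by edgeR's or DESeq2's test. Without adjustment 2 were higher and 1 lower in WT mice, against 6.55% and 4.83% of all tested genes, and 3 were lower in AppNL-G-F mice, against 7.67%. *Tpm1*, a tropomyosin of muscle and non-muscle cells, was the partner whose levels were most like those of *Cald1*, with 28.9 ± 1.48, 32.9 ± 0.387, 22.1 ± 1.70 and 18.6 ± 1.31 CPM in veh-treated WT, treated WT, veh-treated AppNL-G-F and treated AppNL-G-F mice.

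Among factors that act with SRF and in mural cells, 8 of 10 listed symbols were found among the counted genes, and 6 of these 8 were tested. *Srf* was at 51.0 ± 5.14 CPM in veh-treated WT and 40.8 ± 5.35 CPM in veh-treated AppNL-G-F mice (-0.32, adjusted p = 0.0598), and its log2 fold changes with treatment were -0.11 in WT and 0.19 in AppNL-G-F mice. *Mrtfa*, a coactivator of SRF, passed in no comparison. The related *Mrtfb* (-0.34), *Ebf1* (-0.83) and *Tbx2* (-0.72) were lower in veh-treated AppNL-G-F mice, but this number of 3 depended on single libraries. It was 0 without replicate 1 of the veh-treated AppNL-G-F mice, and 1 without replicate 2 or 3 of that group, without any 1 of the veh-treated WT mice and without replicate 1 of the treated AppNL-G-F mice. These 3 and *Foxs1* were lower among treated mice. Of 18 genes of PDGF, TGF-beta, Notch and angiopoietin signalling to mural cells, 5 were lower and 3 higher under veh, and 11 were lower and 5 higher under treatment. The 8 that passed under veh were 5 without replicate 1 of the veh-treated AppNL-G-F mice or without replicate 2 of the veh-treated WT mice. *Pdgfb*, the ligand of the *Pdgfrb* receptor, had a log2 fold change of 0.068 under veh and was higher by 0.39 among treated mice (adjusted p = 0.0273). The endothelial TGF-beta coreceptor gene *Eng* was lower (-0.88 under veh, -0.90 under treatment), as was *Tgfbr1* (-0.46 and -0.24), whereas *Tgfbr2* was higher (0.65 and 0.72). *Tgfb1* was higher among treated mice (0.46).

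**Figure D3:**
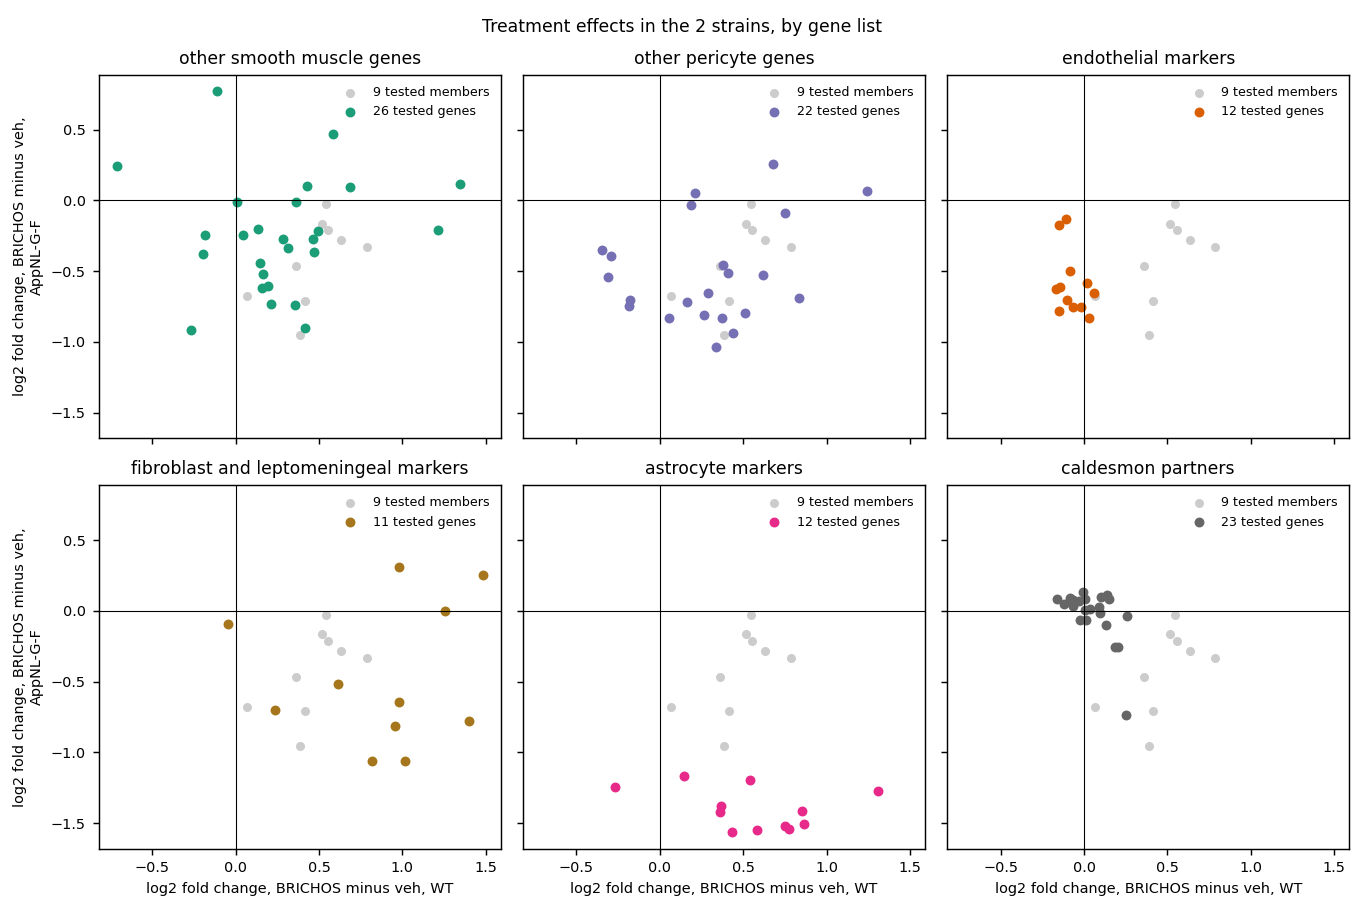
Log2 fold change with rh Bri2 BRICHOS R221E in WT mice (horizontal axes) against that in AppNL-G-F mice (vertical axes) for the tested genes of 6 lists in colour, with the 9 tested members in grey. The members lie in the lower right quadrant, endothelial markers lie below 0 in AppNL-G-F and near 0 in WT mice, and most caldesmon partners lie close to 0 in both.

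Markers of other cell types moved together with the members in some comparisons, and their part in the results was not tested. Endothelial cells, the neighbours of mural cells, were represented by 12 markers, of which 10 were lower and 1 (*Slc2a1*) higher in veh-treated AppNL-G-F mice, with a median of -0.80. With treatment 10 of the 12 were lower in AppNL-G-F mice at an unadjusted p-value under 0.05 (median -0.64), against 7.67% of all tested genes. In WT mice the median was -0.09 and none was under 0.05. None of the 12 passed the adjusted threshold with treatment by edgeR's test. DESeq2's Wald test called 4 of the 12 lower in AppNL-G-F mice, which were *Cdh5*, *Itm2a*, *Slco1a4* and *Abcb1a*, and 0 in WT mice. *Ptprb*, an endothelial phosphatase, was at 150.6 ± 2.85, 136.5 ± 31.7, 82.5 ± 18.8 and 53.9 ± 8.47 CPM in the same order of groups as for *Tpm1*. The summed level of the 12 was between 1134 and 1244 CPM in veh-treated WT, 954 and 1340 in treated WT, 887 and 1176 in veh-treated AppNL-G-F, and 742 and 809 in treated AppNL-G-F mice. None of these markers was at 0 in any group.

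Of 11 tested fibroblast and leptomeningeal markers, 6 were higher in treated WT mice and 4 lower in treated AppNL-G-F mice when p-values under 0.05 were counted without adjustment. The shares of all tested genes were 6.55% and 7.67%. The medians of these markers, 0.98 and -0.64, have the signs of the *Cald1* effects. Their summed level was 35.3 to 89.0 CPM in veh-treated WT, 82.6 to 119.0 in treated WT, 46.7 to 51.2 in veh-treated AppNL-G-F and 18.2 to 35.4 in treated AppNL-G-F mice. *Col1a2*, a collagen chain of fibroblasts, was at 4.47 ± 1.30, 11.8 ± 2.25, 4.46 ± 1.37 and 2.61 ± 0.735 CPM in the same order. Ependymal and choroid plexus markers summed to 1395 to 5598 CPM in veh-treated and 5056 to 9211 CPM in treated WT mice, with medians of log2 fold changes of 1.20 in WT and -0.63 in AppNL-G-F mice. All 6 border macrophage markers were lower in AppNL-G-F mice under veh (median -1.05) and under treatment (-1.54), and the treatment median was 0.47 in WT and 0.03 in AppNL-G-F mice. DESeq2's Wald test called *Col1a2*, the ependymal marker *Foxj1* and the border macrophage markers *Cd163* and *Lyve1* higher with treatment in WT mice. In AppNL-G-F mice it called 0 of the 7 fibroblast, 8 ependymal and choroid plexus and 6 border macrophage markers with an adjusted p-value. Astrocyte markers differed from the members, since all 12 were higher in veh-treated AppNL-G-F than WT mice (median 2.23), whereas their treatment medians of 0.56 in WT and -1.42 in AppNL-G-F mice had the same signs. Counted without adjustment as above, all 12 were lower with treatment in AppNL-G-F mice and 1 was higher in WT mice. The summed astrocyte level was 456 to 651 CPM in veh-treated WT, 461 to 880 in treated WT, 1488 to 4783 in veh-treated AppNL-G-F and 687 to 1999 in treated AppNL-G-F mice. The microglia markers had treatment medians of -0.10 in WT and 0.08 in AppNL-G-F mice, opposite in sign to those of the members, and under veh 7 of 10 were lower and 2 higher in AppNL-G-F mice. Among treated mice, where all 8 members were lower in the AppNL-G-F strain, so were 10 of 12 endothelial, 9 of 11 fibroblast and 10 of 10 ependymal and choroid plexus markers, and 0 of 12 astrocyte markers. Of the 10 microglia markers 6 were lower and 2 higher in this comparison. Of 8 neuron markers 5 were lower under veh and 6 among treated mice, and of 8 oligodendrocyte markers 2 and 0. The number of neuron markers under veh was 3 without replicate 1 of the veh-treated AppNL-G-F mice or without replicate 3 of the veh-treated WT mice.

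**Figure D4:**
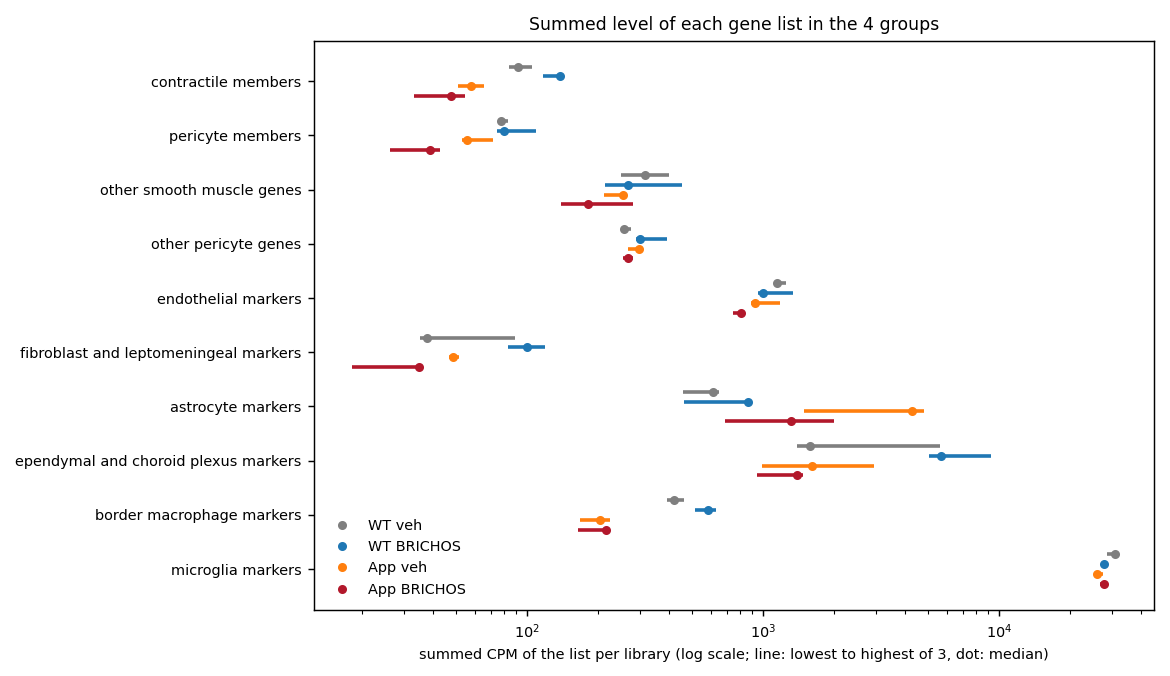
Summed CPM per library (horizontal log axis) of the members and of 8 gene lists in the 4 groups, where a line runs from the lowest to the highest of 3 mice and the dot is the median. The contractile members, which include *Cald1*, range from 116.5 to 140.5 CPM in treated WT and from 33.1 to 54.5 CPM in treated AppNL-G-F mice, against microglia markers of at least 25624 CPM in every library.

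The genes most like *Cald1* over the 12 libraries were ranked by Pearson's r of log2 CPM, as a description that reflects the group means as much as the mice within groups. The first 8 of 15424 were *Ahnak* (r = 0.98), *Cx3cl1* (0.98), *Hspg2* (0.98), *Sorbs2* (0.97), *Tpm1* (0.97), *Grb10* (0.97), *Plcb4* (0.97) and *Bcam* (0.97), with Spearman's rho of 0.89 to 0.97. The ranking depended on the measure: by Spearman's rho these genes had ranks between 5 (*Tpm1*, tied with the member *Myl9*) and 237 (*Bcam*). All of them except *Tpm1* had rank 14 or a later one. They encode, among others, a large scaffold protein (*Ahnak*), the chemokine fractalkine (*Cx3cl1*), the basement membrane proteoglycan perlecan (*Hspg2*), an adaptor of actin structures (*Sorbs2*) and a laminin receptor (*Bcam*). An r of at least 0.9 was reached by 277 genes. *Ahnak* was at 51.2 ± 2.47, 63.7 ± 6.71, 31.5 ± 5.56 and 19.3 ± 1.43 CPM in veh-treated WT, treated WT, veh-treated AppNL-G-F and treated AppNL-G-F mice. *Hspg2* was at 24.9 ± 1.15, 28.6 ± 5.04, 16.3 ± 1.19 and 9.39 ± 0.381 CPM.

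Of the members, *Myl9* ranked 24 with an r of 0.95 and *Vtn* 133 with 0.92. They were followed by *Pdgfrb* (0.89, rank 361), *Myh11* (0.89, rank 362), *Tagln* (0.88, rank 439), *Acta2* (0.87, rank 499), *Tpm2* (0.80) and *Des* (0.74). After the group means had been subtracted, so that only differences between mice of a group remained, the r to *Cald1* was 0.74 for *Myl9*, 0.67 for *Pdgfrb*, 0.66 for *Vtn*, 0.57 for *Myh11*, 0.48 for *Acta2* and *Tpm2*, 0.38 for *Tagln* and 0.10 for *Des*. Of 15424 genes, *Myl9* had rank 149 by this measure, *Pdgfrb* 367, *Vtn* 445 and *Myh11* 884. *Acta2* (1689), *Tpm2* (1713), *Tagln* (2780) and *Des* (6466) ranked later. The genes most like *Cald1* by this measure were *9330160F10Rik* (0.94), *Kremen1* (0.93), *Kit* (0.92), *Kctd17* (0.92) and *Zdhhc4* (0.91), none of which is a member or among the 8 genes above. The r of *Kremen1* over all libraries was -0.42.

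**Figure D5:**
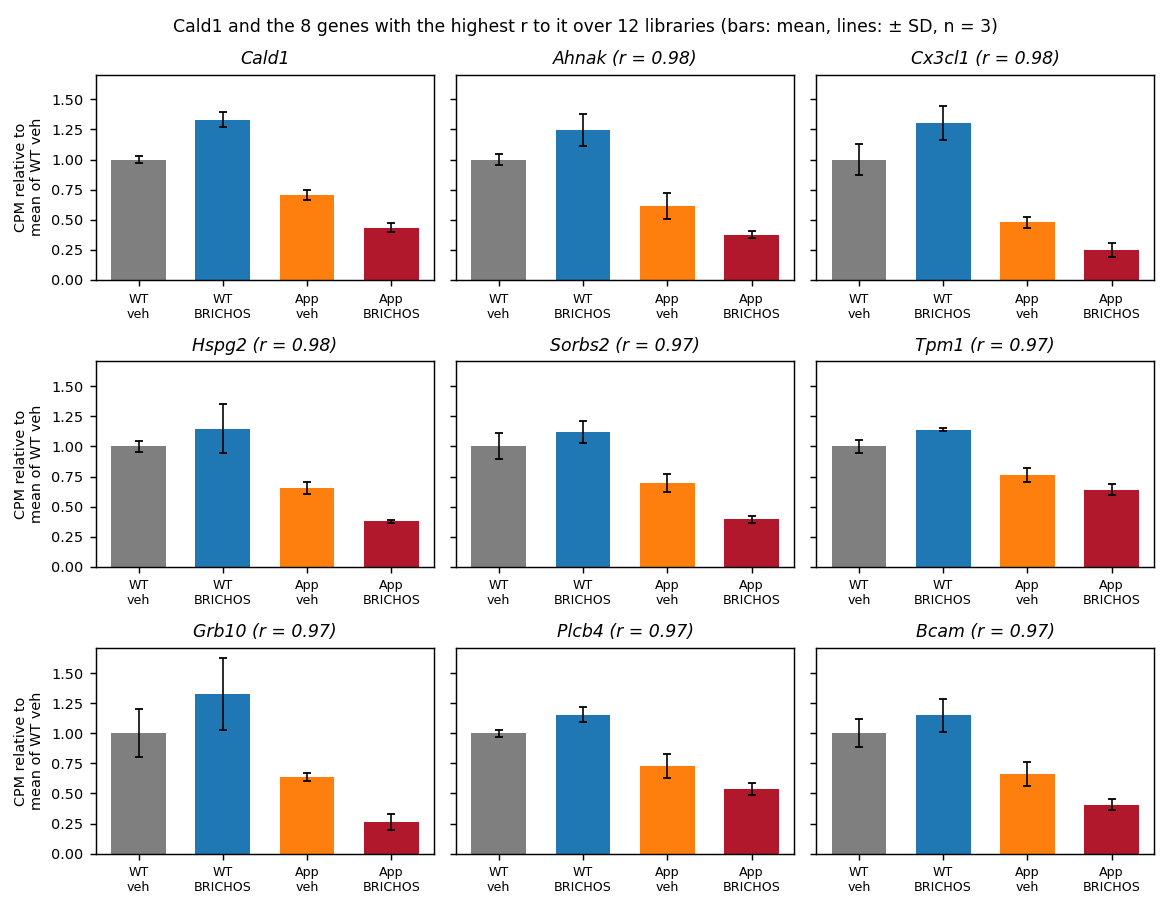
Mean CPM relative to the mean of veh-treated WT mice (vertical axes from 0) for *Cald1* and the 8 genes with the highest r to it, where lines are ± SD of 3 mice. The genes were chosen for their likeness to *Cald1*, so the order of groups they share with it is no result, and relative to veh-treated WT mice the means of *Tpm1*, 32.9 CPM in treated WT and 18.6 CPM in treated AppNL-G-F mice, lie closest together.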

How the data were processed

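RNA-sequencing data of CD11b-positive cortical cells from 12 mice were used. The authors trimmed the reads, aligned them to GRCm38 with STAR, counted them per gene with featureCounts and deposited raw counts without normalization. Libraries were prepared with a stranded kit, and the strand setting of the counting is not given in the sources used here. Groups were taken from the labels. Gene symbols came from the GENCODE annotation of GRCm38, with 55141 of 55487 genes matched, and promoter sequences from RefSeq (GRCm38.p6), with windows for 7 of the 10 members.

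Counts were analysed in R 4.3.3 with edgeR 4.0.16 (filterByExpr with a minimum count of 10, TMM normalization, quasi-likelihood fit with 1 mean per group over all 12 libraries, Benjamini-Hochberg adjustment over all 15425 tested genes). Log2 CPM for correlations used a prior count of 2, and tables were made with Python 3.11.15, pandas 2.3.3 and matplotlib 3.10.9. Members and lists were chosen with earlier results of these data known. Named genes were the members, the 3 most abundant tested genes of each list, the 8 and 5 genes most like *Cald1* over libraries and within groups, and the 3 genes after *Cald1* in the order of the difference of treatment effects. Other list genes were named after their values were seen. *Myl12b*, *Mkl1* and *Mkl2* were not found under these symbols in the table.

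Alternatives were DESeq2 1.42.0 (size factors, or its Wald test), no filter on low counts, at least 10 counts in every library, the compared groups alone, the replicate number as a block, Spearman's rho and the omission of each library. Equally numbered libraries came from different mice, and their deviations from the group means had correlations of -0.01 to 0.23 across genes, with a value under 0.1 in every comparison, so the numbers were not taken as pairs.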

Additional observations from a re-analysis of the deposited data

Results flagged for a closer look

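The treatment effect on *Cald1* differed between the strains, with a log2 fold change of -0.71 in AppNL-G-F minus 0.41 in WT mice, a difference of -1.12. All 3 treated WT mice were above, and all 3 treated AppNL-G-F mice below, the veh-treated mice of their strain. The gene was selected for this difference, so it is listed as a value and carries no test.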

How the results depend on the processing

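Depth limits *Cnn1* and *Des*, and 3 mice per group limit all treatment comparisons. All 8 members stayed lower in treated AppNL-G-F than treated WT mice under every alternative. Between veh-treated strains the number of members called was 3, with 5 when only the compared groups were fitted and 1 to 5 when single libraries were left out. For treatment in AppNL-G-F mice it was 0, with 2 by DESeq2's Wald test and 0 to 1 without single libraries, and for the difference of the effects 0, with 1 by the Wald test and 1 without a filter. Of all genes, treatment in AppNL-G-F mice called 1, but 119 by the Wald test, 25 without a filter, 0 with only the compared groups, 0 with the replicate block and 0 to 162 without single libraries (162 without replicate 3 of the veh-treated AppNL-G-F mice). Treatment in WT mice called 0, but 80 by the Wald test, 12 without a filter and 0 to 5 without single libraries. The difference called 1, but 244 by the Wald test, 107 without a filter and 0 to 88 without single libraries. Further smooth muscle genes lower among treated strains were 21, and 13 with at least 10 counts in every library, which left fewer genes to test. Without single libraries they were 2 to 10 between veh-treated strains and 9 to 17 in treated AppNL-G-F against veh-treated WT mice. The further pericyte genes lower under veh were 1, but 4 by the Wald test, 3 without a filter, 6 with only the compared groups, 3 with the replicate block and 1 to 4 without single libraries. Estimates that changed sign without a single library were those of treatment in AppNL-G-F mice for *Acta2* (-0.55 to 0.11), *Myh11* (-0.47 to 0.077) and *Tpm2* (-0.13 to 0.13), of the strains under veh for *Pdgfrb* (-0.26 to 0.088) and of treatment in WT mice for *Vtn* (-0.13 to 0.19). Causes were not tested. The SRF and related factors lower under veh were 3, but 1 with the replicate block and 0 to 3 without single libraries. With at least 10 counts in every library, neuron markers were 2 under veh and 2 among treated mice, and fibroblast markers 5 among treated mice, and with only the compared groups oligodendrocyte markers under veh were 6. The replicate block moved no other count of members or of the smooth muscle, pericyte, partner and signalling lists by more than 1.5 times.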
